A study of Rattus norvegicus with 24 samples.

Results

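The mitochondrial ribosome, or mitoribosome, translates the few messenger RNAs that mitochondria transcribe from their own genome, and its products are core subunits of the respiratory chain and of ATP synthase. Its proteins are encoded in the nucleus, made in the cytosol and imported. They form a large subunit, which holds the site of peptide bond formation and the exit tunnel, and a small subunit, which binds and decodes the messenger RNA. Some have relatives in bacterial ribosomes, and others are found in mitochondria only. In the supraoptic nucleus of the hypothalamus, magnocellular neurons make vasopressin and oxytocin, hormones that their axons release in the posterior pituitary, and they raise their output when water is withheld.

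The genes described here are those whose symbol in the array annotation starts with Mrpl or Mrps followed by a digit, taken from probe sets with a single symbol. The rule gave 97 probe sets of 73 genes, out of 31042 probe sets on the array, of which 20826 carried a single symbol. Of the 97 probe sets, 92 passed the filter on low signal and were tested in each array set. The other 5, for Mrpl37 (1386606_at), Mrps18c (1382418_at), Mrps2 (1393468_at), Mrps26 (1375166_at) and Mrps27 (1386471_at), fell below the filter, and each of these genes kept at least 1 other probe set. Of the 92 tested, 59 belong to proteins of the large subunit and 33 to proteins of the small subunit. Mrps18a and Mrps30 were counted with the large subunit, where their proteins sit despite the gene names.

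Each array was hybridised with supraoptic nucleus RNA pooled from 5 Sprague Dawley rats. The male set held 5 arrays of males dehydrated for 3 days and 5 of control males, aged 10 to 12 weeks. The female set held 4 arrays of females kept without water for 72 h and 4 of euhydrated females; a further 5 lactating samples are not analysed here. The design text treats the pools of a group as replicates of a mixed kind, both biological and technical, so p-values measure the spread between these pools, which may be partly technical. Male RNA was extracted with QIAzol and RNeasy columns and amplified with an Ambion kit, and female RNA was isolated in Trizol before labelling with Affymetrix reagents. Each set was therefore compared with its own controls. In such tissue samples, fewer cells of a type and less RNA per cell cannot be told apart.

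The vasopressin gene Avp had signals between 3644 and 7666 on the 18 arrays used, and the oxytocin gene Oxt between 3001 and 6698. On replicate 5 of the dehydrated females, left out by the rule, Avp was at 50.6 and Oxt at 26.0, and its median correlation with the other female arrays was 0.815, against 0.925 to 0.973 among those. The ratio of 3' to 5' signal of GAPDH, a measure of RNA length, ran from 2.72 to 3.89 on dehydrated male arrays and from 2.49 to 3.50 on control male arrays. In females it ran from 1.07 to 1.68 in dehydrated arrays and from 1.02 to 4.12 in control arrays. The highest were dehydrated array 4 and control array 2, the others reaching 1.25 and 1.05. The same ratio of beta-actin ran from 6.83 to 8.998 on dehydrated male arrays and from 5.23 to 7.12 on control male arrays, the highest control lying above 1 dehydrated array. In females it ran from 2.56 to 5.30 on dehydrated arrays and from 2.44 to 13.3 on control arrays. The same 2 arrays were highest, the others reaching 2.74 in dehydrated and 3.65 in control females. The part of these ratios in the results was not tested. No pair of arrays held identical values.

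Promoters of these genes in other mammals are known for sites of the factors NRF1, GABP and YY1, which regulate many nuclear genes of mitochondria. The RefSeq table (GRCr8) held a promoter, 250 bases before and 50 after the gene start, for 59 of the 73 genes. Each motif was searched on both strands. The GABP motif CCGGAAG was found in 20 of the 59 promoters (33.9%), against 9.22% of all 27457 promoters in the table and 11.2% of the 19005 promoters of coding genes. The YY1 motif AAGATGGC was found in 14 (23.7%), against 3.44% and 3.92%, and 10 of its 14 matches began after the gene start. The NRF1 motif, which stands in capitals in the promoter of Mrpl17, was found in 4 (6.78%), against 0.932% and 1.14%. No GABP match overlapped a YY1 match. At least 1 motif stood in 31 member promoters (52.5%), namely 7 of the 14 whose gene had a probe set that rose in dehydrated males and 24 of the 45 others. A match is a description of the letters and not a bound site.

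The promoters of 4 genes that rose in dehydrated males are shown because together they hold each of the motifs. The stretches run from 100 bases before to 30 bases after the gene start, 5′ to 3′ on the gene's strand, with the matches in capitals. They lie at chr3:138222224-138222353, plus strand, for Mrps26, with GABP on the opposite strand, and at chr10:101342542-101342671, plus strand, for Mrps7, with YY1. Those of Mrps18a, with GABP and YY1, and Mrpl17, with NRF1, lie at chr9:22367351-22367480 and chr1:169575670-169575799, both on the minus strand.
Mrps26: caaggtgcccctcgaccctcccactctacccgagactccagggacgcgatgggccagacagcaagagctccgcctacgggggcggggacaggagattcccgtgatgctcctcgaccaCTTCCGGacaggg
Mrps7: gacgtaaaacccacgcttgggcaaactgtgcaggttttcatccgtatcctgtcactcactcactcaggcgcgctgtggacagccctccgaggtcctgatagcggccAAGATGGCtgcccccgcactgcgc
Mrps18a: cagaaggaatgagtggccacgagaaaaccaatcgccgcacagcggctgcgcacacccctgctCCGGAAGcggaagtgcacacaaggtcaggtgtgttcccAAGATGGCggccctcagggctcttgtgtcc
Mrpl17: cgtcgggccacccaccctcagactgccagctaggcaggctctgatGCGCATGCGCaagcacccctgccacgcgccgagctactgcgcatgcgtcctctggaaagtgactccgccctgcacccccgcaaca

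In dehydrated males, 16 of the 92 probe sets (17.4%) rose and 0 fell by limma at an adjusted p under 0.05, each of the 16 for a different gene. Over all 21729 probe sets tested, 8.32% rose and 9.38% fell. At an unadjusted p under 0.05, 23 of the members were higher and 11 lower, against 13.1% and 18.2% of all probe sets. The rises ran from 1.18-fold to 1.44-fold on the scale of log2(rescaled signal + 32), which understates changes of dim probe sets. The median log2 fold change was 0.08 over the members and -0.04 over all probe sets, with 54 members above 0 and 38 below. Every dehydrated array was above every control array for 15 members (16.3%) and below for 3 (3.26%), against 6.82% and 5.95% of all probe sets. Of the 16 members that rose, 12 had groups that did not overlap.

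Brightness bears on these shares. Most members were bright, and bright probe sets were called more often. With the probe sets tested split by mean level into 4 bins of equal size, in the brightest bin 12 of 54 members rose (22.2%), against 20% of all probe sets there, which is near the background; 0 of these members and 11.5% of all fell. In the next bin 4 of 22 members rose (18.2%), against 7.81% of all. None of the 16 members in the 2 dimmer bins was called in males, 2 of them having an unadjusted p under 0.05 with a lower and 1 with a higher level.

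The largest rise was that of Mrps26 (1367526_at), a small subunit protein found in mitochondria only. Its signals were 1363, 1315, 1382, 1310 and 1260 on the dehydrated male arrays, against 711, 989, 926, 892 and 1135 on the control male arrays. Every dehydrated array was above every control array, with means of 1326 ± 48.0 and 931 ± 154 (SD, n = 5 each) and a log2 fold change of 0.52 ± 0.09 (SE; limma adjusted p = 0.00134). In females the signals were 1069, 1260, 856 and 1593 on the dehydrated arrays, against 800, 1023, 803 and 752 on the control arrays. There the groups overlapped and the log2 fold change was 0.47 ± 0.17 (limma adjusted p = 0.171).

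Mrpl41 (1371423_at), a mitochondria-specific protein of the large subunit, had the smallest adjusted p in males. It had signals of 1017, 1084, 1072, 1029 and 1051 in dehydrated males, against 691, 789, 749, 704 and 797 in control males, with no overlap. Its log2 fold change was 0.49 ± 0.05 (limma adjusted p = 2.49e-05). In dehydrated females it had 733, 893, 592 and 1178, against 619, 788, 631 and 472 in control females. These groups overlapped, the third dehydrated array lying below 3 of the control arrays, and the log2 fold change of 0.41 was not called.

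Mrps7 (1373929_at), whose bacterial relative organises the head of the small subunit, had signals of 413, 483, 460, 480 and 463 in dehydrated males, against 300, 343, 363, 335 and 357 in control males. The groups did not overlap, and the log2 fold change was 0.43 ± 0.07 (limma adjusted p = 0.000549). Dehydrated females had 452, 503, 357 and 472, against 351, 280, 376 and 367 in control females. Only the third dehydrated female array lay within the control range, and the log2 fold change was 0.37 ± 0.13 without a call.

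Mrpl38 (1383618_at), a mitochondria-specific protein of the large subunit, had signals of 195, 218, 195, 193 and 185 in dehydrated males, against 140, 150, 138, 153 and 149 in control males. The groups stood apart, with a log2 fold change of 0.42 ± 0.07 (limma adjusted p = 0.000981). Mrpl1 (1389125_at), the relative of the bacterial stalk protein L1, had 205, 248, 208, 226 and 218 in dehydrated males, against 160, 196, 174, 158 and 147 in control males. It too showed no overlap, with a log2 fold change of 0.40 ± 0.08 (limma adjusted p = 0.00523). In dehydrated females Mrpl1 had 181, 261, 206 and 282, against 166, 178, 168 and 183 in control females. There 1 dehydrated array, the first, lay within the control range, and the log2 fold change was 0.39 ± 0.14.

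**Figure D1:**
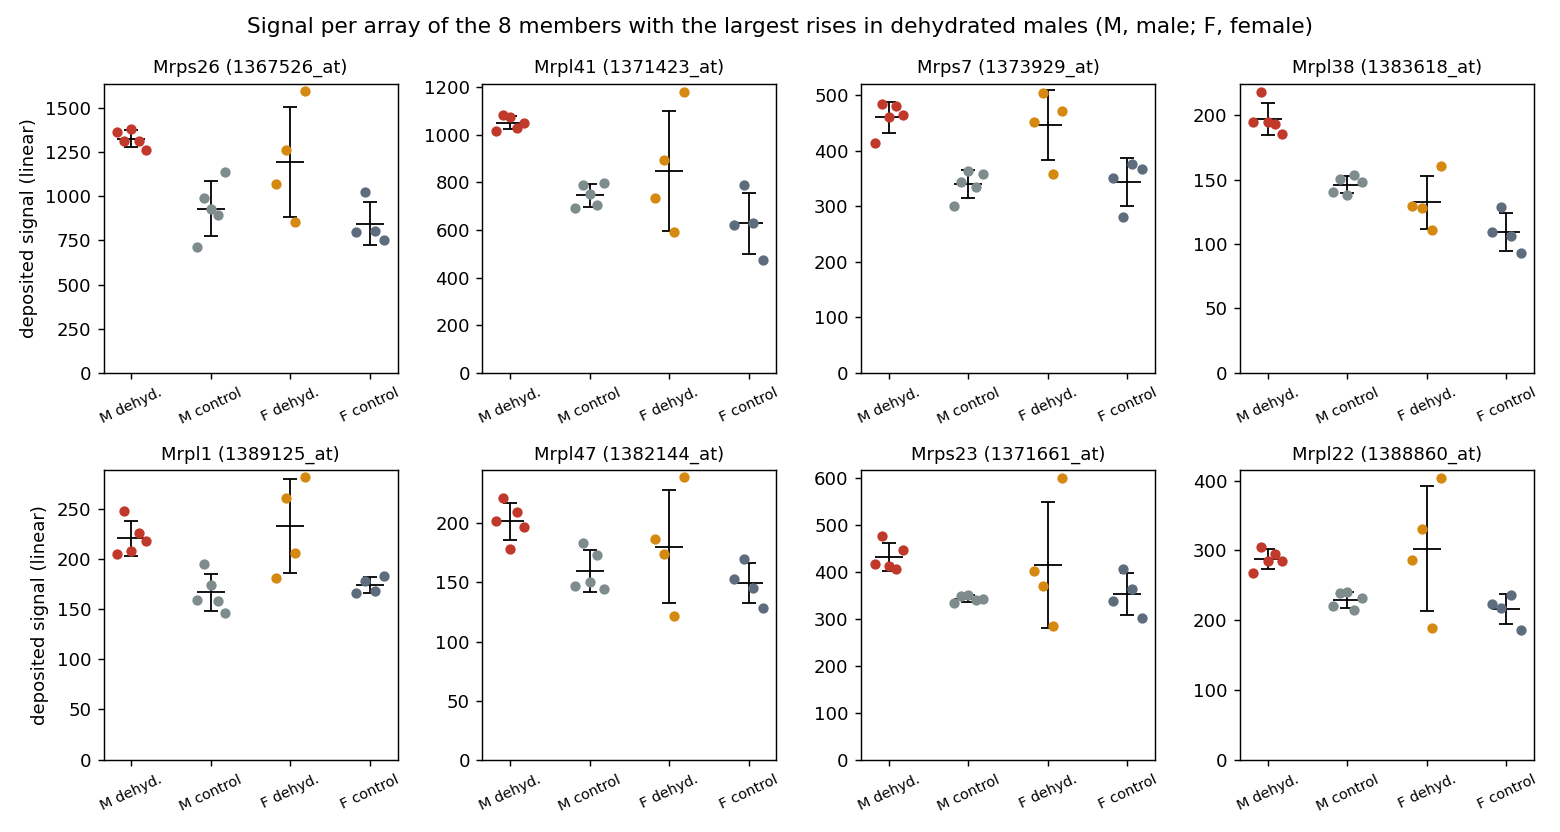
Deposited linear signal of the 8 members with the largest rises in dehydrated males, 1 panel each, with a point per array and the mean ± SD as a line and bars; 5 arrays in each male group and 4 in each female group. Dehydrated males lie above control males without overlap in every panel but that of Mrpl47, while the dehydrated female groups spread widely and overlap their controls.

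The 16 that rose in males came from both subunits: 11 of 59 for the large subunit (18.6%) and 5 of 33 for the small (15.2%). The median log2 fold change over all tested members was 0.10 for the large subunit and -0.02 for the small subunit. By origin, 10 of 52 probe sets of proteins with a bacterial relative rose (19.2%), and 6 of 40 of mitochondria-specific proteins (15%). These splits are counts, and no difference between them was tested. With a single probe set per gene, 15 of 73 genes rose (20.5%).

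In the large subunit, Mrpl22 (1388860_at), whose bacterial relative lines the exit tunnel, lay between 267 and 305 in dehydrated males and between 214 and 241 in control males, with a log2 fold change of 0.32 ± 0.06 (limma adjusted p = 0.00322). Mrpl17 (1369013_a_at) lay between 1320 and 1392 in dehydrated males and between 1031 and 1222 in control males, with a log2 fold change of 0.24 ± 0.05 (limma adjusted p = 0.00627). Both groups of arrays stood apart for each gene. Mrps18a (1371591_at), a relative of bacterial S18 that sits in the large subunit, rose by 0.29 ± 0.06 on the log2 scale, with arrays between 355 and 400 in dehydrated males and between 275 and 331 in control males. The remaining large subunit genes that rose were Mrpl47 by 0.33, Mrpl49 by 0.29, Mrpl42 by 0.25, Mrpl28 by 0.24 and Mrpl33 by 0.24.

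In the small subunit, Mrps23 (1371661_at), a mitochondria-specific protein, lay between 407 and 478 in dehydrated males and between 334 and 351 in control males, with a log2 fold change of 0.33 ± 0.06 (limma adjusted p = 0.00173). Mrps24 (1371649_at), the relative of bacterial S3, rose by 0.28 ± 0.07, although its lowest dehydrated array, at 446, lay below its highest control array, at 471. Mrps2 (1372116_at), the relative of bacterial S2, lay between 184 and 206 in dehydrated males and between 152 and 168 in control males, a log2 fold change of 0.27 ± 0.06. The dehydrated and control arrays did not overlap for Mrps2 and Mrps23.

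The rises of 12 genes passed the threshold whichever single male array was left out. The other 4 were Mrpl49, which passed in 7 of 10 such fits, Mrpl28 in 6, Mrpl33 in 3 and Mrpl42 in 2. In a single fit of all 4 groups, which shares 1 estimate of the spread between the male and female arrays, 5 members rose in males: Mrps26, Mrpl41, Mrps7, Mrpl38 and Mrpl1. With each array centred on its median signal instead of its trimmed mean, 25 members rose in males, all 16 among them; that scaling put the median of all probe sets at 0.04 and turned the calls over all of them to 2710 higher and 1091 lower, against 1808 and 2038.

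Levels below control in males did not pass the threshold in the main fit, although some did under other settings, as given below. Mrpl45 (1371790_at), which lies near the exit tunnel and binds the inner membrane, had a log2 fold change of -0.22 ± 0.07 (limma adjusted p = 0.0529) with every dehydrated array below every control array. The probe set 1396444_at of Mrpl12, whose bacterial relative forms the stalk that contacts translation factors, had dim signals of 30.5, 34.4, 28.3, 18.6 and 24.4 in dehydrated males, against 36.5, 37.2, 34.5, 34.5 and 49.5 in control males. These groups stood just apart, with a log2 fold change of -0.42 ± 0.15 (limma adjusted p = 0.0671). Mrps17 (1399002_at) also had every dehydrated array below every control array, with a log2 fold change of -0.13 (limma adjusted p = 0.143). Mrps27 (1372916_at), a small subunit protein with the repeats of RNA-binding proteins, had 97.0, 100.3, 58.7, 89.7 and 92.5 in dehydrated males, against 117, 127, 98.6, 104 and 113 in control males. Its groups overlapped slightly and the log2 fold change was -0.35 ± 0.13 (limma adjusted p = 0.0716).

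**Figure D2:**
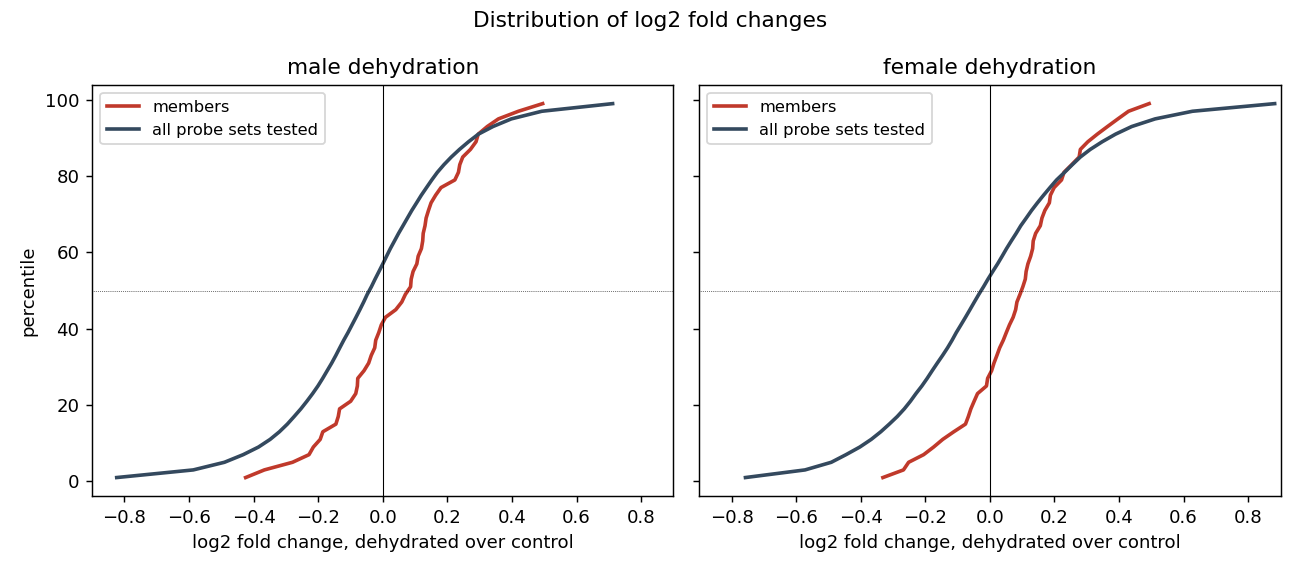
Percentiles of the log2 fold change, dehydrated over control, for the tested members (red) and all tested probe sets (dark blue), with males left and females right. The members' curve is steeper in both panels and crosses the 50th percentile at 0.08 in males and 0.10 in females, against -0.04 and -0.03 for all probe sets.

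In females, 0 of the 92 members were called by limma in either direction, where 2.96% of all 21729 probe sets were called, 1.77% higher and 1.19% lower. Before adjustment, 7 members were higher and 2 lower at a p under 0.05, against 8.3% and 10.6% of all probe sets. The smallest adjusted p of a member was 0.150, that of Mrpl28. For 0 members did the arrays separate the groups fully in either direction, against 5.31% of all probe sets above and 7.04% below. The median log2 fold change was 0.10 over the members and -0.03 over all probe sets, and 66 members were above 0 and 26 below. The spread was wider than in males, with a median SE of a member's log2 fold change of 0.17 in females and 0.08 in males.

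That female median rested on 1 array. The members' median difference from the mean of the control females was 0.09, 0.09, -0.18 and 0.43 on dehydrated arrays 1 to 4, against 0.06, 0.04, 0.02 and -0.11 on the control arrays. Dehydrated array 4 stood highest and dehydrated array 3 lowest of all 8. Dehydrated array 4 also had the highest ratios of 3' to 5' signal among the dehydrated female arrays used, and their part was not tested. Without dehydrated array 4 the median log2 fold change was -0.01, with 42 members above 0 and 50 below, and without dehydrated array 3 it was 0.21. With replicate 5, the array left out, it was -0.11, that array having a member median of -0.80. In males the same medians were 0.01, 0.12, 0.02, 0.08 and 0.08 on dehydrated arrays, against -0.05, 0.03, 0.02, -0.03 and 0.04 on control arrays. The male groups thus overlapped in their medians, as did the arrays of 4 of the 16 genes that rose, whereas those of the other 12 did not.

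**Figure D3:**
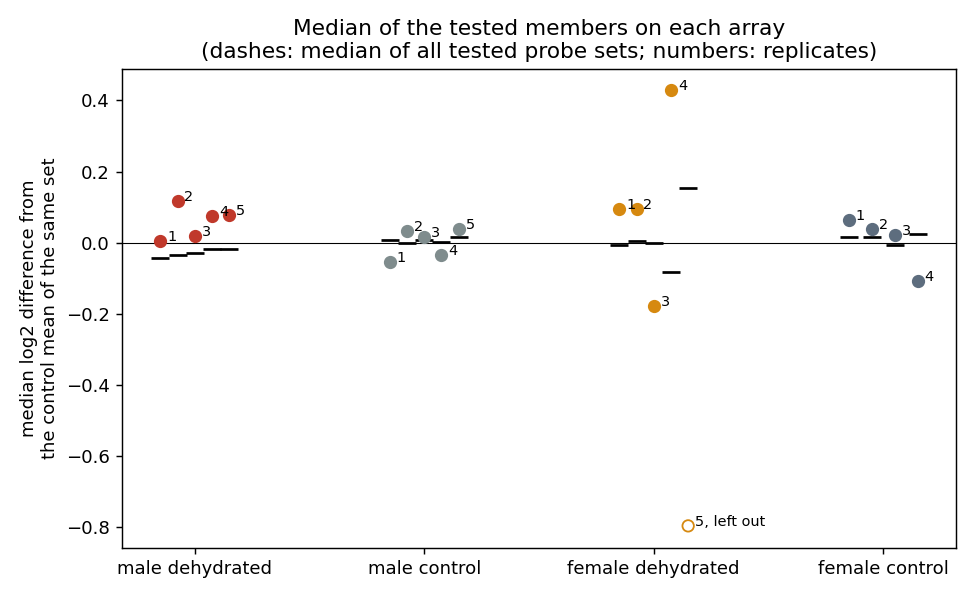
Median over the tested members of the log2 difference from the control mean of the same set, 1 point per array with its replicate number; dashes give the median of all tested probe sets, and the open circle is the array left out. Dehydrated female array 4 lies at 0.43 and array 3 at -0.18, while all male arrays lie between -0.05 and 0.12.

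The female members with the smallest p were Mrpl28, Mrpl1, Mrps7, Mrps26 and Mrps27. Mrpl28 (1373705_at), which has a bacterial relative in the large subunit, had signals of 373, 450, 367 and 564 in dehydrated females, against 388, 279, 322 and 296 in control females. The first control array lay above 2 of the dehydrated arrays, and the log2 fold change was 0.43 ± 0.15. In males Mrpl28 had 308, 342, 365, 361 and 373 when dehydrated, against 264, 302, 307, 309 and 296 in controls, with 1 dehydrated array below the highest control array. Mrps27 (1372916_at) had 65.5, 66.0, 83.6 and 76.0 in dehydrated females, against 90.1, 104, 82.3 and 94.6 in control females. Its log2 fold change was -0.33 ± 0.13 in females and -0.35 ± 0.13 in males, without a call in either. Of the 16 genes that rose in males, all 16 had a log2 fold change above 0 in females, between 0.16 and 0.47, and 6 had an unadjusted p under 0.05. These female values include dehydrated array 4, and the positive values of Mrps24, Mrpl33, Mrps18a and Mrps23 rested on it. On dehydrated arrays 1 to 4 Mrps24 (1371649_at) had 324, 431, 214 and 581, against 357, 393, 330 and 243 on the control arrays.

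The difference between the dehydration effects, male minus female, passed the threshold for 0 of the 92 members by limma, 0 also at an unadjusted p under 0.05, against 0.0322% of all probe sets past the adjusted threshold, and 4.73% higher and 5.29% lower at the unadjusted one. Its median over the members was -0.01. The smallest p was that of Mrps12 (1372128_at), the relative of the bacterial decoding protein S12, with log2 fold changes of -0.04 in males and 0.29 in females. The difference was -0.33 (95% interval -0.67 to 0.01; limma adjusted p = 0.510). Next was the probe set 1390188_at of Mrpl51, a mitochondria-specific protein of the large subunit, at -0.30 in males and 0.17 in females, a difference of -0.47 (95% interval -1.001 to 0.06; limma adjusted p = 0.561). That probe set was dim, and of the 4 tested for Mrpl51 it was the only 1 above 0 in females. In males 0 of the 4 were above 0. For Mrps26 the interval of the difference ran from -0.36 to 0.47, beside log2 fold changes of 0.52 in males and 0.47 in females. Sex, extraction, labelling and signal software change together between the sets and cannot be told apart.

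Signs matched between the sets for 76 of the 92 members (82.6%), of which 52 were above 0 in both and 24 below 0 in both. Over all 20492 probe sets tested in both sets, 68.1% matched. Pearson's r of the male and female log2 fold changes was 0.71 across the members and 0.54 across all probe sets. These are descriptions across probe sets, which share arrays and are not independent; the sets share no control arrays. The female values include dehydrated array 4, on which the members' female median rested.

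**Figure D4:**
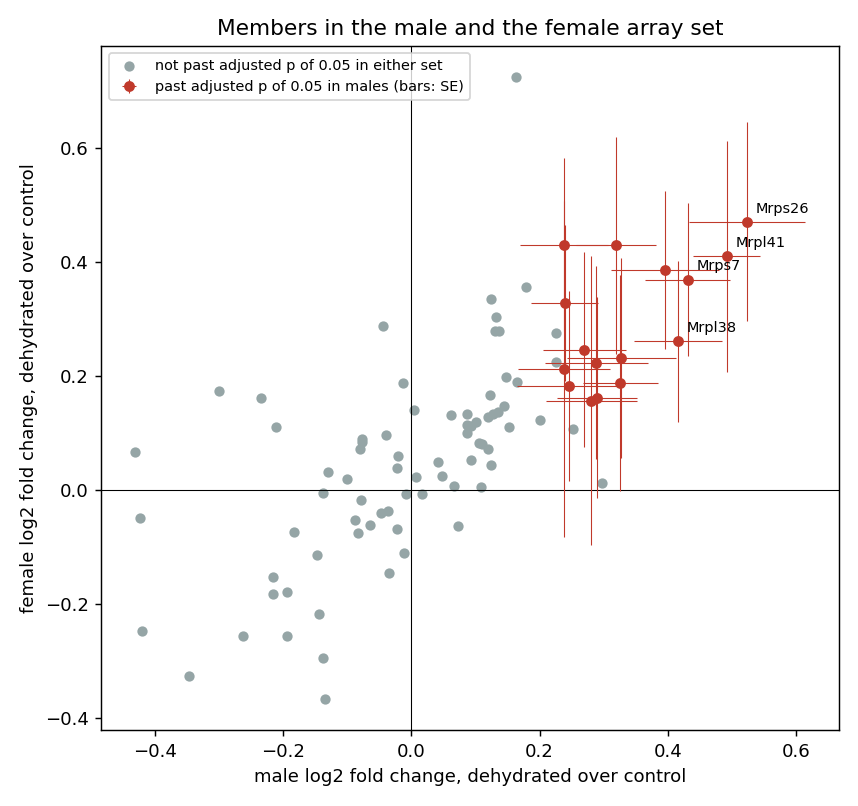
Log2 fold change, dehydrated over control, in males (horizontal) and females (vertical) for the 92 tested members; red points with SE bars are the 16 past an adjusted p of 0.05 in males. All 16 lie above 0 on both axes, and 24 members lie below 0 on both. The female values include dehydrated array 4.

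Of the 73 genes, 18 had more than 1 probe set and 17 had more than 1 tested. In males the probe sets of 9 of these genes differed in sign, and those of Mrpl49 differed in call only, at 0.29 and 0.05. Mrps2 had log2 fold changes of 0.27, which was called, and -0.42 (1382782_at), and Mrps24 had 0.28, also called, and -0.14. The second probe set of Mrps2 was dim, with signals of 21.4, 6.8, 33.7, 12.0 and 20.8 in dehydrated males and 20.1, 37.3, 30.8, 27.3 and 15.4 in control males, and these overlap. The other genes of differing sign in males were Mrpl10, Mrpl12, Mrpl37, Mrpl40, Mrps15, Mrps18c and Mrps22, none with a called probe set. In females 5 genes differed in sign, namely Mrpl12, Mrpl40, Mrpl51, Mrps2 and Mrps24. What transcript each probe set matches was not examined.

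Other genes of mitochondrial translation were counted from lists of known function, with the brightest probe set for each gene. Over all probe sets tested, 8.32% rose and 9.38% fell in males, and 1.77% rose and 1.19% fell in females. Among mitoribosomal proteins under other symbols, 1 of 5 rose in males, Chchd1 by 0.28 ± 0.07 on the log2 scale, and 0 fell. Of 13 mitochondrial translation factors, 0 were called in either sex by limma. The smallest p in males was that of Tsfm, the exchange factor of mitochondrial EF-Tu, at 0.24 ± 0.09 (limma adjusted p = 0.0802). It was the only translation factor above control at an unadjusted p under 0.05 in males; in females neither list had a gene past that threshold.

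Of 16 mitochondrial aminoacyl-tRNA synthetases, which charge tRNAs inside mitochondria, 0 rose and 2 fell in males, and 0 rose and 2 fell in females. Vars2, for valine, fell in both, by 0.64 ± 0.15 in males and 1.09 ± 0.26 in females on the log2 scale (limma adjusted p = 0.00767 in males and 0.0451 in females). Nars2, for asparagine, fell by 0.45 ± 0.11 in males, and Tars2, for threonine, fell by 0.55 ± 0.13 in females. The median of the list was -0.13 in males and -0.28 in females, below that of the members.

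Of 24 genes of mitoribosome assembly and rRNA modification, 4 rose in males and 0 fell, while 0 of 22 were called in females by limma (without adjustment, 2 higher and 1 lower at a p under 0.05). Those that rose were Mrm2, a methyltransferase of the large rRNA, by 0.88 ± 0.22, the helicase Ddx28 by 0.63 ± 0.14, Malsu1 by 0.26 ± 0.08 and Ngrn by 0.20 ± 0.06. Of 11 genes of mitochondrial DNA maintenance and transcription, Twnk, the replicative helicase, rose in males by 0.37 ± 0.11. Mterf2 fell by 0.38 ± 0.10 and Tfam, which packages mitochondrial DNA and starts its transcription, fell by 0.23 ± 0.07. In females Twnk had a log2 fold change of -0.37 ± 0.15 without a call. Of 9 nuclear regulators of mitochondrial genes, Myc rose in males by 0.56 ± 0.11 and Nrf1, the factor of the NRF1 motif above, fell by 0.44 ± 0.15 (limma adjusted p = 0.0496), while 0 were called in females by limma (1 higher at an unadjusted p under 0.05).

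In lists of neighbouring steps, rises and falls were called in males. Over all probe sets tested in males 8.32% rose and 9.38% fell, and in the brightest bin 20% rose and 11.5% fell. The lists were not split by brightness. Of 31 protein import genes 10 rose (32.3%) and 0 fell, with a median of 0.13, including the import motor Hspa9 by 0.50 ± 0.08 and Dnajc15 by 0.45 ± 0.09. Of 11 mitochondrial chaperones and proteases 6 rose and 0 fell, among them the proteases Clpp by 0.43 ± 0.07 and Lonp1 by 0.34 ± 0.10. Of 76 subunits of the respiratory chain and ATP synthase 21 rose (27.6%) and 2 fell, with a median of 0.08. Ndufv3, a subunit of complex I, rose by 0.66 ± 0.07 and Atp5f1d, of ATP synthase, by 0.41 ± 0.06, while Cox6b2 fell by 0.54 ± 0.13 and Uqcr11 by 0.20 ± 0.04. Of 42 cytosolic ribosomal protein genes, taken by symbol, 0 rose and 11 fell (26.2%), with a median of -0.08, including Rpl21 by 0.33 ± 0.06. The symbol rule also took in Rpl7l1, a relative of a ribosomal protein gene, which fell by 0.31 ± 0.08. In females 0 genes of these 4 lists were called by limma; at an unadjusted p under 0.05, 1 import gene, 2 chaperone or protease genes, 2 respiratory genes and 0 cytosolic ribosomal genes were higher, and 0, 1, 2 and 1 genes of these lists were lower, in the same order.

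**Figure D5:**
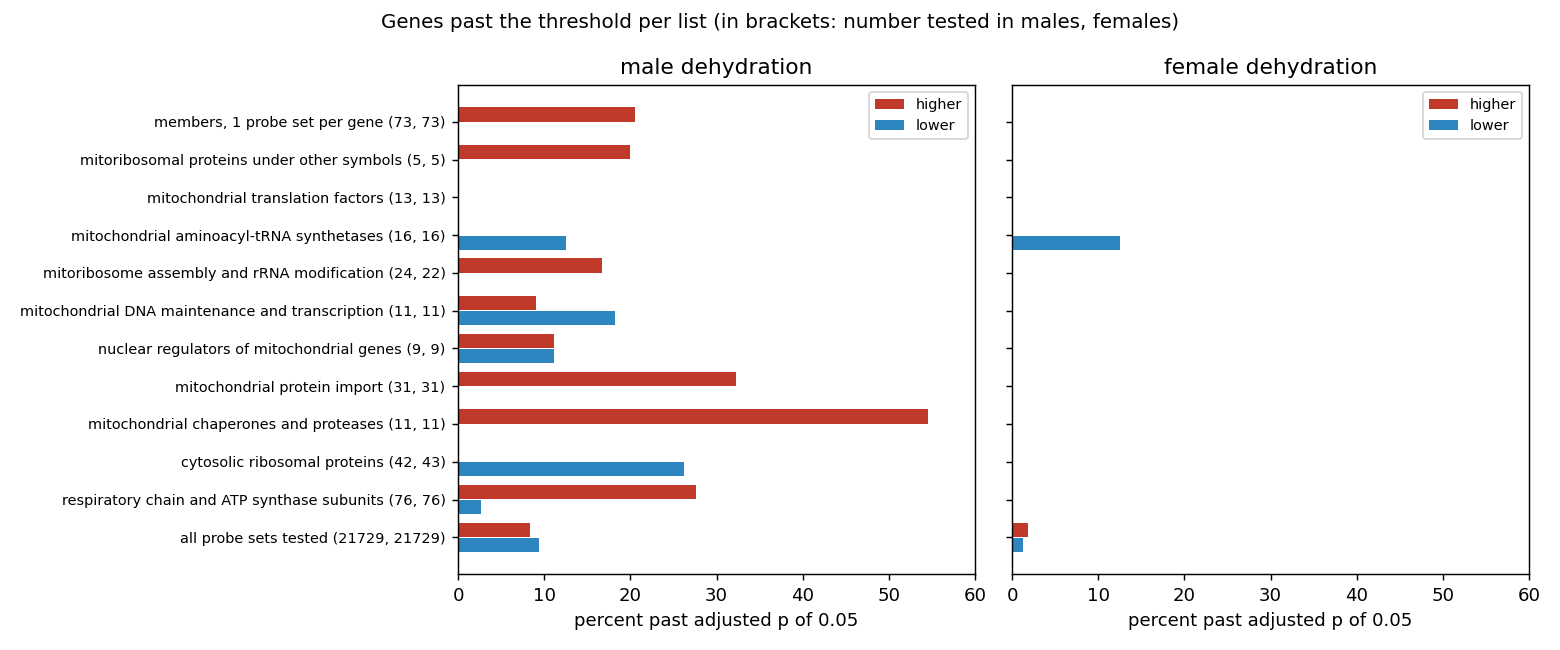
Percent of genes past an adjusted p of 0.05, higher (red) and lower (blue), for the members with a single probe set per gene, each list and all probe sets tested, with males left and females right. In males 20.5% of the member genes are higher and 0% lower, whereas 26.2% of the cytosolic ribosomal genes are lower; in females only the tRNA synthetase list and all probe sets have bars.

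Markers of other cell types moved in the same samples. In males, 11 of 15 mural cell and meningeal markers fell and 1 rose, with a summed signal of 5181 to 10366 on dehydrated arrays and 8822 to 14819 on control arrays. Of 10 microglial markers tested 5 fell, as did 3 of 10 astrocyte, 2 of 3 ependymal and 2 of 2 blood markers, while 0 of 12 oligodendrocyte and 0 of 11 endothelial markers were called by limma (1 oligodendrocyte marker higher and 2 endothelial markers lower before adjustment, at a p under 0.05). In males the 10 magnocellular markers summed to 19511 to 22957 on dehydrated arrays and 16876 to 19753 on control arrays. Avp and Oxt are among these markers. Of 9 tested in males 4 rose and 1 fell, with a median log2 fold change of 0.08. Of 7 markers of other hypothalamic neurons 0 rose and 1 fell in males. In females, 5 of 12 oligodendrocyte markers fell, with sums of 4166 to 7258 on dehydrated arrays and 7332 to 10384 on control arrays. Of 15 mural cell and meningeal markers in females 5 fell, with sums of 4589 to 7599 on dehydrated arrays and 6935 to 8912 on control arrays, and 1 of 10 astrocyte and 1 of 2 blood markers fell. The female magnocellular sums were 15481 to 23932 on dehydrated arrays and 12805 to 14899 on control arrays. Of these 10 markers 4 rose and 1 fell in females. Of 6 markers of other hypothalamic neurons 0 were called in females by limma, and 2 were lower at an unadjusted p under 0.05. No marker was listed at 0 in any group. The part of these shifts in the members' values was not tested.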

How the data were processed

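The deposited values are linear intensity signals per probe set of an Affymetrix rat array. Per the submitters' processing notes and labels, the authors made them with GCOS 1.2 for the male arrays and MAS5 for the female arrays; background and summary settings are not given in the sources used here. Here the 2% trimmed mean of every array was set to 500, and log2(x + 32) was taken. Tests left out 57 control probe sets and kept those with a mean above the 30th percentile of a fit. Printed signals are the deposited ones.

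Groups were compared with limma 3.58.1 in R 4.3.3 (lmFit, eBayes with trend), with Benjamini-Hochberg adjustment over all probe sets kept and a threshold of 0.05. Each set was fitted alone, and the difference between the dehydration effects on the 18 arrays. The code was tested on simulated data. The number of arrays limits the precision. Figures were drawn in Python 3.11.15 (matplotlib 3.10.9).

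The members, lists and marker sets were chosen with earlier results of these data known, so their counts are descriptions. Genes were named by a rule: the 10 largest rises and falls past the threshold per comparison, the 5 smallest p where under 5 passed, the 2 smallest p in the difference, genes whose probe sets differ in call or sign, and up to 2 rising and 2 falling genes per list, or the smallest p. Other named genes were chosen after their values were seen. Alternatives covered scaling, offset, filter, a joint fit, the array left out and each single array.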

Additional observations from a re-analysis of the deposited data

Results flagged for a closer look

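Of 80 groups of values examined, 4 had 1 array far from the others, as chance alone gives in about 1 of 20 groups; all were male. Mrps27 (1372916_at) had a signal of 58.7 on dehydrated array 3, and the nearest dehydrated array had 89.7. Mrpl33 (1371512_at) had 658 on control array 5, the next control array being at 572. Mrpl42 (1371853_at) had 237 on control array 3, against 302 on the nearest control array. Mrpl28 (1373705_at) had 264 on control array 1, against 296 on the nearest control array.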

How the results depend on the processing

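The number of members called in males was 16, with 25 after centring arrays on their median and 5 in a single fit of all 4 groups; the median log2 fold change of the members was 0.16 under median centring, against 0.08. Quantile normalization gave 18 (16 higher, 2 lower) and kept 14 of the 16, and no filter gave 15 and kept 14, losing Mrpl33 and Mrpl42 each time. The 2 lower under quantile normalization were Mrps33 and Mrps17. A filter at the 50th percentile gave 18, with 17 higher and 1 lower, Mrpl45. Without single arrays the male count ran from 13 to 17 and the male median from 0.03 to 0.08, the lowest without control array 1. Some of these counts include members that were lower. Examples are Mrpl12 (1396444_at) without male dehydrated array 2 and Mrpl51 (1376930_at) without male dehydrated array 3. In females 5 members were called in the joint fit (Mrps26, Mrpl17, Mrpl28, Mrps7 and Mrpl1) and 2 without dehydrated array 3 (Mrpl17 and Mrpl22). Leave-one-out counts ran from 0 to 2 in females and were 0 throughout for the difference. The medians ran from -0.01 to 0.21 in females and from -0.13 to 0.10 for the difference. Without both female arrays 4, a setting chosen after seeing the data, the female median was -0.04. With the array left out by rule, Mrps7 in females was at -0.10, against 0.37. Over all probe sets the joint fit called 2270 in males and 2322 in females, against 3846 and 643. The causes were not tested. No paired analysis was possible because the labels give no replicate number that dehydrated and control arrays share; the numbers used here for the male and the dehydrated female arrays follow accession order and only name them.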
